A study of Mus musculus with 8 samples.

Results

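The 49 genes described here encode the machinery that copies the genome in S phase and the factors that start it. They were chosen by name from a fixed list, all 49 were found among the 24907 gene symbols of the deposited table, and all 49 passed the filter on low counts that left 12538 genes for testing. Membership depends on the symbol alone, though the list was drawn up with earlier results of these data known. The cells were ASZ001, a mouse basal cell carcinoma line grown as adherent cultures. Some cells, called NS cells, had a control shRNA that silences nothing, and others, called knockdown cells, had an shRNA to Tgfbr1, which encodes a TGF-beta receptor. Both kinds of cell were given DMSO or Dox and 4OHT, usual abbreviations of doxycycline and 4-hydroxytamoxifen, and only the libraries with Dox and 4OHT are labelled RasV12, an activated form of Ras. The 4 groups of 2 libraries are thus NS with DMSO, NS RasV12 with Dox and 4OHT, knockdown with DMSO, and knockdown RasV12 with Dox and 4OHT. No group received the drugs without RasV12, so their effects cannot be told apart, and "Ras response" below means the difference between Dox and 4OHT and DMSO. In the same way "under Ras" means under Dox and 4OHT, and NS cells or libraries called untreated are those given DMSO. The labels name a single cell line, give no time or dose, and leave out how the 2 libraries of each group relate to cultures. So the p-values reflect just the spread among these samples, and that spread could be technical.

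Before a cell divides, each origin of replication is bound by the origin recognition complex, and CDC6 and CDT1 then load the ring of the 6 MCM proteins, the helicase core. At the start of S phase kinases activate this ring with CDC45, the GINS complex and MCM10, and primase, polymerases, the PCNA clamp and its loader copy the unwound strands. Many of the genes are transcribed when the RB protein releases E2F transcription factors late in G1, and basal keratinocytes and the tumours that resemble them keep this programme on while they cycle. TGF-beta slows the cycle of epithelial cells, and activated Ras can either drive it or stop it.

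Levels are given as CPM, counts of a gene per 1000000 counts of a library after TMM scaling. Adjusted p-values are Benjamini-Hochberg values over all 12538 genes from quasi-likelihood tests in edgeR, and "rose" or "fell" means an adjusted p under 0.05. Log2 changes carry the standard error of the fitted model, with 2 libraries per group. Library totals ran from 12724604.5 to 16233379 counts. Tgfbr1 was at 77.1 and 80.4 CPM in NS and 10.2 and 8.08 CPM in knockdown libraries given DMSO, and at 104 and 91.6 against 8.86 and 9.42 with Dox and 4OHT, so all 8 libraries matched the label of their shRNA. The keratinocyte markers Krt5 and Trp63 were abundant in every library, with Krt5 between 5520 and 13279 CPM and Trp63 between 369 and 462 CPM. Krt14 and Itgb4 were abundant as well, at 2963 to 8662 and 1344 to 1999 CPM. Of the basal cell carcinoma markers, Gli1 was scarce, at 0.554 to 3.27 CPM, and Ptch1 was at 11.3 to 21.1 CPM. Krt5 was highest under DMSO in NS cells, at 13196 and 13279 CPM, against 5770 and 5949 in NS cells under Dox and 4OHT. Of 11 markers of fibroblasts, immune, endothelial and pigment cells, Col3a1, Dct and Tyr had no counts in any library and Ptprc, Cdh5 and Mlana stayed at or under 0.213 CPM. The sum of the 11 was 47.8 and 49.6 CPM in NS under DMSO, 35.0 and 33.9 in NS under Dox and 4OHT, 33.1 and 35.7 in knockdown under DMSO and 48.0 and 49.5 in knockdown under Dox and 4OHT. Most of it was Pecam1, at 22.4 to 37.0 CPM, which fell with Ras in NS cells (-0.67 ± 0.08) and rose in knockdown cells (0.25 ± 0.08). Cd68, a macrophage marker, was at 4.51 and 4.88 CPM in knockdown cells given DMSO and at 15.5 and 14.8 in those given Dox and 4OHT, and in NS cells at 7.53 and 8.74 and at 7.80 and 7.36. The fibroblast marker Dcn was at 1.49 and 2.46 CPM in the first and 0.293 and 0.899 in the second of these knockdown groups. Both changes in knockdown cells passed the test (1.69 ± 0.14 (adjusted p = 1.48e-10) and -1.80 ± 0.43 (adjusted p = 0.0015)), and their part in the changes of the 49 genes was not tested. Counts of Rn45s, a ribosomal RNA gene, made up 0.387% to 2.76% of a library, with 2.49% and 2.57% in knockdown cells under Dox and 4OHT against 0.387% and 1.36% under DMSO, and 0.916% and 2.76% in NS cells under Dox and 4OHT against 0.816% and 0.549%. Without Rn45s the counts of genes that changed with Ras, given below, were the same in both kinds of cell. RNA came from whole cultures, in which fewer cycling cells and less RNA per cell cannot be told apart.

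The replication genes responded to Ras in opposite directions in the 2 kinds of cell. In NS cells 29 of the 49 rose and 3 fell with Ras, while in knockdown cells 34 fell and none rose. Knockdown had an equally divided effect: under DMSO 32 rose and 7 fell, whereas under Dox and 4OHT 4 rose and 30 fell. The background shares were high in all 4 comparisons. In NS cells 20.8% of all genes tested rose and 21.3% fell with Ras, and in knockdown cells 19.5% rose and 16.6% fell. With knockdown 30.9% rose and 31.0% fell under DMSO, and 30.5% rose and 29.7% fell under Dox and 4OHT. The changes were small. The median log2 change of the 49 was 0.21 with Ras in NS cells and -0.21 with Ras in knockdown cells, 0.25 with knockdown under DMSO and -0.19 with knockdown under Dox and 4OHT, against medians of all genes between -0.01 and 0.00. The difference between the 2 Ras responses, the interaction, was negative and past the test in 40 of the 49 and positive in 1, with a background of 18.0% lower and 20.2% higher. In either direction the shares of all genes called were 42.1% and 36.1% for Ras in NS and in knockdown cells, 61.9% and 60.2% for knockdown under DMSO and under Dox and 4OHT, and 38.2% for the interaction. Its median over the 49 was -0.41, against 0.02 over all genes.

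Separation of the libraries gave the same picture with a higher background. With Ras in NS cells the 2 groups did not overlap in 41 of the 49 genes, 35 higher and 6 lower, where 70.2% of all genes did not overlap (35.2% higher and 35.1% lower). In knockdown cells 1 was higher and 42 lower, against 67.1% of all genes (34.6% and 32.6%). With knockdown under DMSO 33 were higher and 11 lower, against 81.2% (40.5% and 40.7%), and under Dox and 4OHT 5 were higher and 36 lower, against 78.6% (38.8% and 39.8%). The summed level of the 49 genes was 5269.8 and 5448 CPM in NS under DMSO and 5964 and 6165 CPM in NS under Dox and 4OHT. Knockdown libraries summed to 6130.0 and 6271 CPM under DMSO and to 5248 and 5247 CPM under Dox and 4OHT. The sum was thus high with either Ras or knockdown alone, and with both it lay at or under the level of the untreated NS libraries. Its position under the untreated NS libraries depends on Rrm2, an exception described below. Rrm2 was at 223 and 226 CPM in NS under DMSO and at 81.3 and 83.0 in knockdown under Dox and 4OHT. By group means, 25 of the 49 genes were highest in knockdown cells under DMSO, 16 in NS cells under Dox and 4OHT and 8 in NS cells under DMSO. None was highest in knockdown cells under Dox and 4OHT, where 25 were lowest. NS cells under DMSO were lowest for 23 genes and knockdown cells under DMSO for 1, and no gene was lowest in NS cells under Dox and 4OHT. These orders were not counted over all genes tested, so they have no background to be read against. The highest group mean exceeded the lowest by a median of 1.33-fold.

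**Figure D1:**
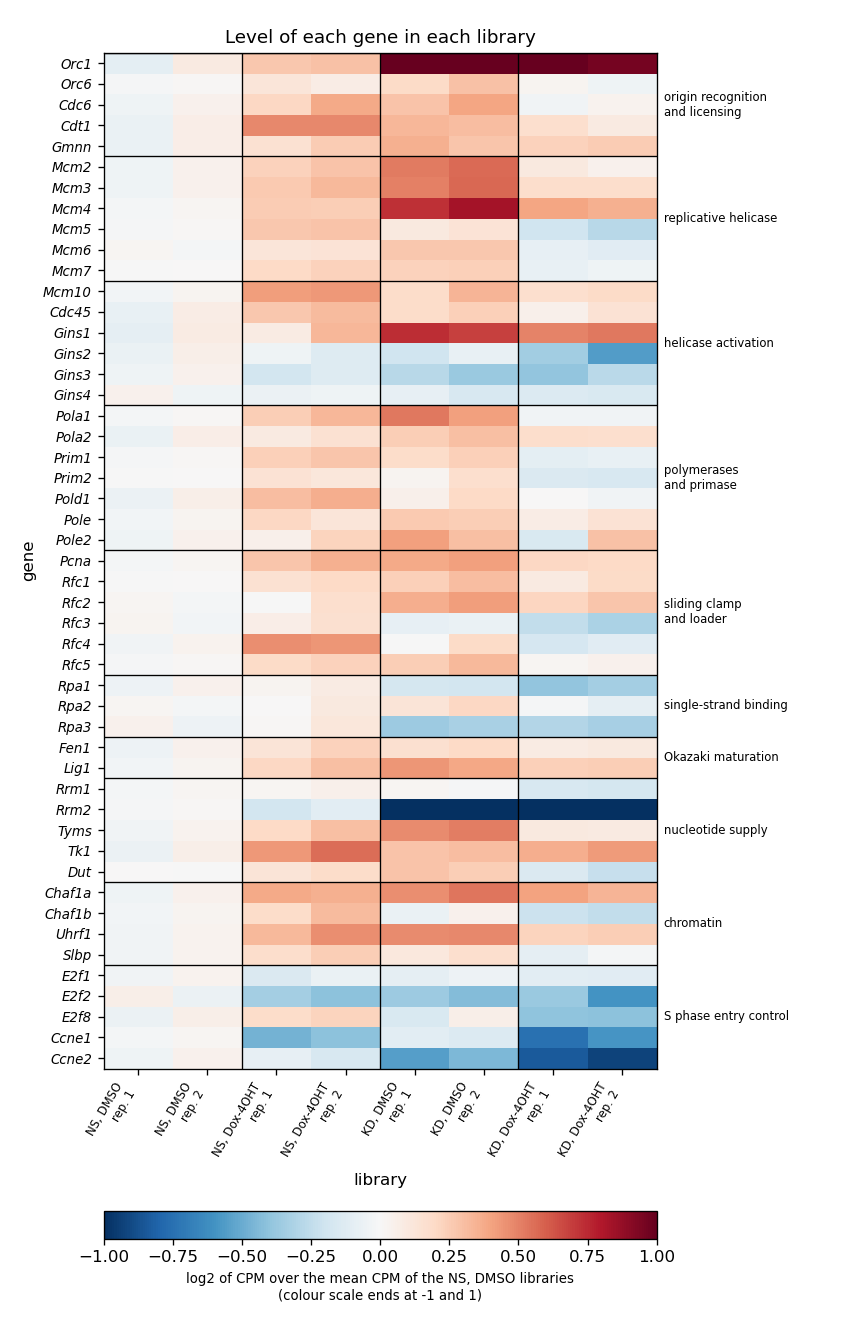
Level of each of the 49 genes in each of the 8 libraries, as log2 of CPM over the mean of the NS libraries under DMSO (NS, non-silencing shRNA; KD, Tgfbr1 knockdown; rep., replicate), with genes grouped by role. Most rows are red in the NS Dox-4OHT and KD DMSO columns and pale in KD Dox-4OHT; Orc1 is high and Rrm2 low in all 4 KD libraries.

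A set of 15 genes passed the test in all 4 pairwise comparisons in the order just given, higher with Ras in NS cells, lower with Ras in knockdown cells, higher with knockdown under DMSO and lower with knockdown under Dox and 4OHT. These were Cdc6, Cdt1, Mcm2, Mcm3, Mcm5, Mcm6, Mcm7, Pola1, Prim1, Pcna, Rfc5, Tyms, Dut, Uhrf1 and Slbp. They are 30.6% of the 49, and 1.56% of all genes tested had the same 4 calls. The set is not fixed. With DESeq2 Cdt1, Mcm3, Pcna, Tyms, Dut and Slbp did not have all 4 calls. Calls of Mcm5, Mcm6 and Uhrf1 depended on single libraries, as given below. The pairs of comparisons that enter this count share libraries, so the 4 calls are not independent of each other. Over the 2 Ras responses alone, which share no library, 23 of the 49 (46.9%) rose in NS cells and fell in knockdown cells, as did 4.16% of all genes tested. Other replication genes and genes of mitosis and G2 had higher shares, given below. The 23 genes are not fixed either. Among them DESeq2 did not call Dut and E2f8 in NS cells. In knockdown cells it did not call Cdt1, Pole, Rfc1, Rfc4, Chaf1a, Chaf1b and Slbp. In the stricter test below, those of the 49 that rose in NS cells and those that fell in knockdown cells were different genes. The reverse, a fall in NS cells and a rise in knockdown cells, was seen in none of the 49 and in 4.26% of all genes. E2f1 passed in none of the 4 pairwise comparisons, and Rrm2 fell in all 4.

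**Figure D2:**
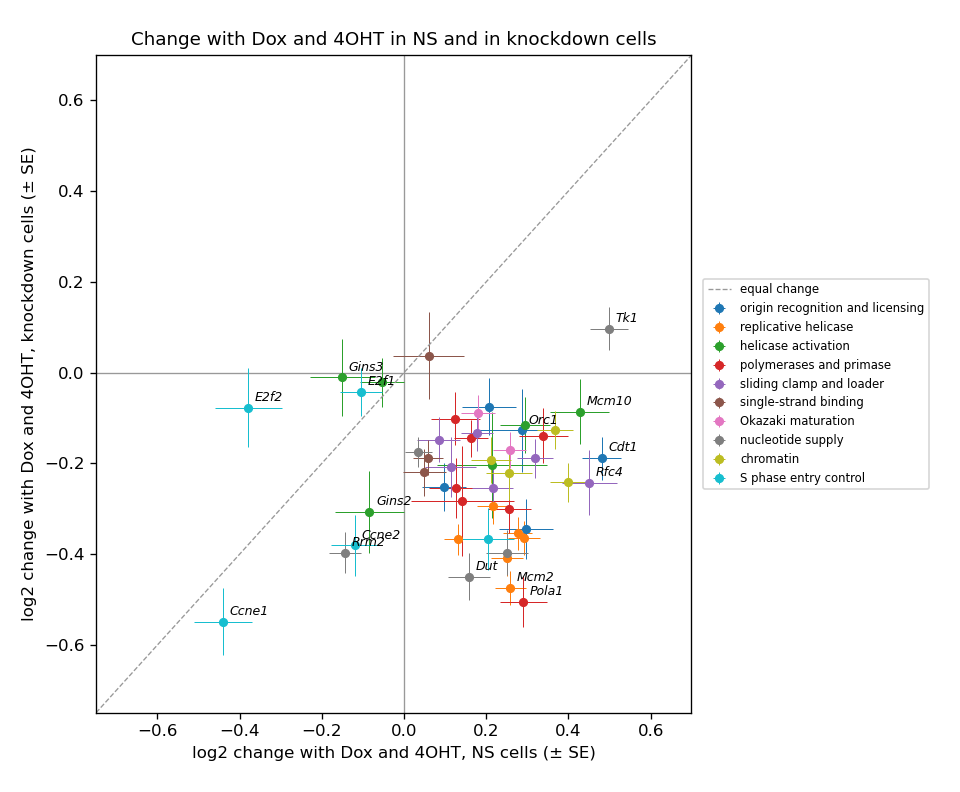
Log2 change with Dox and 4OHT in NS cells (horizontal) and in knockdown cells (vertical), each point 1 gene with bars of 1 SE, coloured by role; the dashed line marks equal changes. The points gather in the lower right, where a gene is higher in NS cells and lower in knockdown cells, while Ccne1 at -0.44 and -0.55 is low on both axes.

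The licensing genes prepare origins before S phase. Cdt1, whose protein loads the MCM ring, was among the most responsive. Cdt1 was at 89.2 and 97.7 CPM in NS libraries with DMSO, 130.3 and 130.1 in NS under Dox and 4OHT, 118 and 116 in knockdown under DMSO and 105 and 99.7 in knockdown under Dox and 4OHT. Its libraries separated by group, with the untreated NS cells lowest and NS cells under Ras highest. The log2 change with Ras was 0.48 ± 0.05 (adjusted p = 3.13e-09) in NS cells and -0.19 ± 0.05 (adjusted p = 0.00252) in knockdown cells, and the difference between them was -0.67 ± 0.07 (adjusted p = 9.85e-09). Cdc6, the ATPase that works with Cdt1, changed in the same directions. Cdc6 was at 44.8 and 47.3 CPM in NS libraries with DMSO, 53.1 and 59.8 in NS under Dox and 4OHT, 56.0 and 60.7 in knockdown under DMSO and 44.95 and 47.2 in knockdown under Dox and 4OHT. The NS libraries under DMSO and the knockdown libraries under Dox and 4OHT overlapped, and both lay under the other 4. Ras changed Cdc6 by 0.30 ± 0.07 (adjusted p = 0.000594) in NS cells and -0.34 ± 0.07 (adjusted p = 0.000154) in knockdown cells.

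Gmnn encodes geminin, which binds CDT1 and prevents a second round of licensing. Gmnn was at 39.8 and 43.6 CPM in NS libraries with DMSO, 46.3 and 49.7 in NS under Dox and 4OHT, 53.3 and 50.6 in knockdown under DMSO and 49.02 and 49.6 in knockdown under Dox and 4OHT. It rose with Ras in NS cells (0.21 ± 0.07, adjusted p = 0.0124) and with knockdown under DMSO (0.32 ± 0.06, adjusted p = 0.00011), while its change with Ras in knockdown cells was -0.07 ± 0.06 (adjusted p = 0.385). Orc1, the subunit of the origin recognition complex whose level varies through the cycle, had the largest rise of the 49 with knockdown. Orc1 was at 12.1 and 13.7 CPM in NS libraries with DMSO, 15.6 and 15.8 in NS under Dox and 4OHT, 26.0 and 31.6 in knockdown under DMSO and 27.8 and 25.05 in knockdown under Dox and 4OHT. All 4 knockdown libraries lay above all 4 NS libraries. The knockdown change was 1.17 ± 0.10 (adjusted p = 2.53e-10) under DMSO and 0.75 ± 0.10 (adjusted p = 5.95e-07) under Dox and 4OHT. Per kilobase of the deposited gene length Orc1 was the lowest of the 49 in NS cells under DMSO, at 4.31 CPM per kilobase. Orc6, another subunit, rose with knockdown under DMSO (0.25 ± 0.05) and fell with Ras in knockdown cells (-0.25 ± 0.05). Single libraries decided some of these calls, given here with the log2 change and adjusted p without the library. That of Gmnn with Ras in NS cells ended without NS DMSO replicate 1 (0.14, adjusted p = 0.19) or, separately, NS Dox-4OHT replicate 2 (0.15, adjusted p = 0.141), and that of Cdt1 with Ras in knockdown cells without knockdown Dox-4OHT replicate 2 (-0.15, adjusted p = 0.0514). The interaction of Orc1 was -0.41 ± 0.15 (adjusted p = 0.0296) and ended without NS DMSO replicate 1 (-0.33, adjusted p = 0.156), knockdown DMSO replicate 2 (-0.27, adjusted p = 0.195), NS Dox-4OHT replicate 1 (-0.43, adjusted p = 0.0577), NS Dox-4OHT replicate 2 (-0.41, adjusted p = 0.0781) or, separately, knockdown Dox-4OHT replicate 2 (-0.35, adjusted p = 0.101); that of Gmnn was -0.28 ± 0.09 (adjusted p = 0.0156) and ended without NS DMSO replicate 1 (-0.22, adjusted p = 0.1), NS Dox-4OHT replicate 2 (-0.24, adjusted p = 0.0739) or, separately, knockdown Dox-4OHT replicate 1 (-0.27, adjusted p = 0.0519).

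The 6 MCM genes, which encode the ring of the replicative helicase, all rose with Ras in NS cells, all fell with Ras in knockdown cells and all rose with knockdown under DMSO. Mcm2 was at 235 and 249.3 CPM in NS libraries with DMSO, 284 and 294 in NS under Dox and 4OHT, 348 and 358 in knockdown under DMSO and 259 and 249.7 in knockdown under Dox and 4OHT. Mcm2 was highest in knockdown cells under DMSO. With Dox and 4OHT its level in knockdown cells was close to that of NS cells under DMSO. Its Ras response was 0.26 ± 0.04 (adjusted p = 2.94e-06) in NS cells and -0.47 ± 0.04 (adjusted p = 8.85e-11) in knockdown cells, with an interaction of -0.73 ± 0.05 (adjusted p = 2.63e-11). In the same order of groups Mcm3 was at 223 and 237, 276 and 288, 326 and 343 and 259 and 260.1 CPM. In the same order of groups Mcm4 was at 197 and 204, 239 and 238, 333 and 357 and 263 and 256 CPM. No 2 groups overlapped for either gene, and knockdown cells under DMSO were highest. For Mcm4 the knockdown libraries under Dox and 4OHT also lay above the NS libraries under Dox and 4OHT. Mcm4 had the largest knockdown effect of the 6 under DMSO (0.78 ± 0.04, adjusted p = 5.3e-16) and was the only 1 of the 6 that was still higher with knockdown under Dox and 4OHT (0.12 ± 0.04, adjusted p = 0.00775).

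Mcm5 was at 274 and 279 CPM in NS libraries with DMSO, 333 and 337 in NS under Dox and 4OHT, 296 and 304 in knockdown under DMSO and 241 and 228 in knockdown under Dox and 4OHT. Here NS cells under Ras were highest and knockdown cells under Ras lowest. Mcm5 had the smallest knockdown effect of the 6 under DMSO (0.12 ± 0.04, adjusted p = 0.00616) and the largest fall under Dox and 4OHT (-0.51 ± 0.04, adjusted p = 1.48e-12). In the same order of groups Mcm6 was at 263 and 257, 283 and 286, 313 and 313 and 245 and 240.2 CPM. In the same order of groups Mcm7 was at 144 and 145, 166 and 169.8, 169 and 171 and 137 and 140.1 CPM. For Mcm6 and Mcm7 as well, knockdown libraries under Dox and 4OHT were the lowest, without overlap with any other group. Interactions of the 6 lay between -0.73 and -0.50. Under DMSO the knockdown raised subunits of 1 complex by unequal amounts, from 0.12 for Mcm5 to 0.78 for Mcm4; the differences between genes were not tested. Without NS DMSO replicate 2 (0.12, adjusted p = 0.0502) the Ras call of Mcm6 in NS cells ended, and that of Mcm5 with knockdown under DMSO ended without knockdown DMSO replicate 2 (0.10, adjusted p = 0.0552). Under Dox and 4OHT the knockdown change of Mcm3 was -0.12 ± 0.04 (adjusted p = 0.0101) and ended without NS Dox-4OHT replicate 2 (-0.08, adjusted p = 0.14) or, separately, knockdown Dox-4OHT replicate 1 (-0.11, adjusted p = 0.0596), and that of Mcm4 ended without knockdown Dox-4OHT replicate 1 (0.10, adjusted p = 0.0841). Exons of Mcm7 share bases with Ap4m1 and Cops6 in the GENCODE annotation, and the strand setting of the counting is not given, so part of its counts may belong to them.

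The bases before the starts of Mcm2, Mcm5, Mcm6 and Mcm7 are shown with those of Cdc6 and Pola1, all 6 of which are among the 15 genes with the 4 calls, and of Rrm2, which is not. Mcm3, whose 2 matches lie after its start, and Mcm4, for which no window was matched, are not printed. The sequences are from RefSeq on build GRCm38.p6, 5′ to 3′ on the strand of the gene, and end at the last base before the annotated start (180 bases each). Capitals mark every match to 4 E2F-type words, TTTCCCGC, TTTGGCGC, TTTCGCGC and TTTGCCGC, searched on both strands, where E2F factors are known to bind words of this kind.
Mcm5, chr8:75109329-75109508, plus strand: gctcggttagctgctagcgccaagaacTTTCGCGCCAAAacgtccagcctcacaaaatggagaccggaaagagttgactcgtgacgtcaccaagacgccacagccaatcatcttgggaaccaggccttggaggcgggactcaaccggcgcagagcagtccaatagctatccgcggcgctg
Mcm6, chr1:128359706-128359885, minus strand: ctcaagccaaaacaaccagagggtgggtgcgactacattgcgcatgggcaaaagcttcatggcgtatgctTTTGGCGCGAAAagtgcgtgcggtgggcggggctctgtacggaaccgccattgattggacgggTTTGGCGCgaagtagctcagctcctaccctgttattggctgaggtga
Mcm7, chr5:138171884-138172063, minus strand: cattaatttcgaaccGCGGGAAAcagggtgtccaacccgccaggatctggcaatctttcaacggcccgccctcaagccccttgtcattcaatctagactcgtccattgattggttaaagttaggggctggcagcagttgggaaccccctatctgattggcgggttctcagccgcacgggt
Cdc6, chr11:98907971-98908150, plus strand: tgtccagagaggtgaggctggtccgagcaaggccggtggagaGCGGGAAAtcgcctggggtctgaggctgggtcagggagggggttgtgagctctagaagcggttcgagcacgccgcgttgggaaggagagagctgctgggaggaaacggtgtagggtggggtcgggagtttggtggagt
Pola1, chrX:93632156-93632335, minus strand: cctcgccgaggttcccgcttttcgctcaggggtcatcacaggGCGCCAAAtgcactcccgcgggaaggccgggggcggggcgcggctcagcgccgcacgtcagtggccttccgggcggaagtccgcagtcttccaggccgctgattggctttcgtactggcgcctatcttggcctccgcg
Mcm2, chr6:88898781-88898960, minus strand: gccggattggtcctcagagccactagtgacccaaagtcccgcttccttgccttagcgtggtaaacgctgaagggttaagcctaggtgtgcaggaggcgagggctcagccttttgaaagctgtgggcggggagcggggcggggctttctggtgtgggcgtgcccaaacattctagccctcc
Rrm2, chr12:24708074-24708253, plus strand: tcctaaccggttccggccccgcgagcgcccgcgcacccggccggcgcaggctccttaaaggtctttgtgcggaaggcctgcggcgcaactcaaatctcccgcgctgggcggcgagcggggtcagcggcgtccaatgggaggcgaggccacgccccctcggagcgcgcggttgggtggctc
In Mcm5 a TTTCGCGC on the gene's strand, which starts 153 bases before the gene, overlaps a TTTGGCGC on the other strand at 149 bases. Mcm6 holds 3 matches, at 110, 106 and 47 bases, the first 2 overlapping in the same way. Mcm7, Cdc6 and Pola1 have 1 match each here, all on the other strand, at 165, 138 and 138 bases. No such letters were found in these stretches of Mcm2 and Rrm2, which says nothing of the factors that act there.

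Windows of 300 bases, from 250 before to 50 after the annotated start, were matched for 40 of the 49 genes, 46 windows in all. An E2F-type word was found in at least 1 window of 15 of the 40 (37.5%), against 2.60% of all 27025 genes with a window and 4.78% of the tested genes with a window. The 5-base word CCAAT, searched on both strands, was in 25 of the 40 (62.5%) and in 41.1% of all genes. The 15 genes with an E2F-type word were Orc1, Cdc6, Cdt1, Mcm3, Mcm5, Mcm6, Mcm7, Gins3, Pola1, Pold1, Pole2, Rfc3, Lig1, Uhrf1 and E2f2. Of these, 8 had the 4 opposite calls described above, as did 7 of the 25 genes with a window and no such word. In both sets some of these calls did not hold under other settings. Median interactions were -0.50 in the 15 and -0.40 in the 25. The 7 that hold the word and did not have the 4 calls were Orc1, Gins3, Pold1, Pole2, Rfc3, Lig1 and E2f2. These matches are a description of the letters in the windows.

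Genes of helicase activation were more divided. Mcm10 and Cdc45, which turn the loaded ring into an active helicase, rose with Ras in NS cells (0.43 ± 0.07 and 0.29 ± 0.06) and with knockdown under DMSO (0.27 ± 0.07 and 0.22 ± 0.06), and were lower with knockdown under Dox and 4OHT (-0.24 ± 0.07 and -0.19 ± 0.06). Their Ras changes in knockdown cells were -0.09 ± 0.07 (adjusted p = 0.379) and -0.12 ± 0.06 (adjusted p = 0.147). The 4 GINS subunits, which join CDC45 and the ring in 1 complex, had unlike values. Gins1 was at 7.59 and 8.56 CPM in NS libraries with DMSO, 8.53 and 10.1 in NS under Dox and 4OHT, 13.4 and 13.0 in knockdown under DMSO and 11.4 and 11.6 in knockdown under Dox and 4OHT. Knockdown libraries were above NS libraries under both treatments. Gins1 rose with knockdown under DMSO by 0.72 ± 0.12 (adjusted p = 1.51e-05) and under Dox and 4OHT by 0.30 ± 0.13 (adjusted p = 0.0423). Gins3 fell with knockdown under DMSO (-0.32 ± 0.08, adjusted p = 0.00112), as did Gins4 (-0.12 ± 0.05; adjusted p = 0.0499), while Gins2 was at -0.13 ± 0.08 (adjusted p = 0.188). With Ras in knockdown cells Gins2 fell (-0.31 ± 0.09, adjusted p = 0.00916). No GINS gene passed the test with Ras in NS cells or in the interaction, where Gins1 was at -0.42 ± 0.18 (adjusted p = 0.0663) and passed without NS Dox-4OHT replicate 1 (-0.54, adjusted p = 0.0305).

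The knockdown call of Gins1 under Dox and 4OHT ended without NS Dox-4OHT replicate 1 (0.18, adjusted p = 0.306), knockdown Dox-4OHT replicate 1 (0.32, adjusted p = 0.094) or, separately, knockdown Dox-4OHT replicate 2 (0.28, adjusted p = 0.125). The call of Gins4 ended without NS DMSO replicate 1 (-0.06, adjusted p = 0.442), knockdown DMSO replicate 1 (-0.15, adjusted p = 0.059), knockdown DMSO replicate 2 (-0.07, adjusted p = 0.351), NS Dox-4OHT replicate 1 (-0.11, adjusted p = 0.0721), NS Dox-4OHT replicate 2 (-0.11, adjusted p = 0.0719), knockdown Dox-4OHT replicate 1 (-0.12, adjusted p = 0.0599) or, separately, knockdown Dox-4OHT replicate 2 (-0.12, adjusted p = 0.0613), and that of Gins2 with Ras ended without knockdown DMSO replicate 2 (-0.24, adjusted p = 0.118) or, separately, knockdown Dox-4OHT replicate 2 (-0.21, adjusted p = 0.138). Of the others, Mcm10 with knockdown under DMSO ended without knockdown DMSO replicate 2 (0.20, adjusted p = 0.0609), Cdc45 with knockdown under DMSO without NS DMSO replicate 1 (0.15, adjusted p = 0.0909), and Cdc45 with knockdown under Dox and 4OHT without NS Dox-4OHT replicate 2 (-0.17, adjusted p = 0.0665) or, separately, knockdown Dox-4OHT replicate 1 (-0.14, adjusted p = 0.122). In the annotation the longest exon stretch that Gins2 shares with Gse1 is 2758 bases, and that of Cdc45 with Ufd1 is 164. Their counts may thus hold reads of those genes. The deposited length of Gins2 is 1031 bases, so the gene model counted was not the annotated one.

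Among polymerases and primase, Pola1 encodes the catalytic subunit of DNA polymerase alpha, which with primase starts each new strand. Pola1 was at 56.3 and 57.5 CPM in NS libraries with DMSO, 67.5 and 71.6 in NS under Dox and 4OHT, 81.9 and 75.5 in knockdown under DMSO and 55.4 and 55.5 in knockdown under Dox and 4OHT. The libraries of knockdown cells under Dox and 4OHT were just under those of untreated NS cells, and the other 2 groups lay above without overlap. Its Ras response was 0.29 ± 0.06 (adjusted p = 0.000148) in NS cells and -0.50 ± 0.06 (adjusted p = 5.46e-08) in knockdown cells, and the difference of -0.79 ± 0.08 (adjusted p = 1.12e-08) was the largest of the 49. Prim1, the catalytic subunit of primase, went the same way, with 0.26 ± 0.05 and -0.30 ± 0.05, and Prim2, the large subunit of primase, fell with Ras in knockdown cells (-0.25 ± 0.07) and was at 0.13 ± 0.06 (adjusted p = 0.12) in NS cells. Pole, the catalytic subunit of the leading-strand polymerase epsilon, rose in NS cells (0.16 ± 0.04) and fell in knockdown cells (-0.14 ± 0.04). Pold1, the catalytic subunit of the lagging-strand polymerase delta, rose with Ras in NS cells (0.34 ± 0.06) and was lower with knockdown under Dox and 4OHT (-0.35 ± 0.06). The accessory subunits Pola2 and Pole2 rose with knockdown under DMSO (0.28 ± 0.06 and 0.36 ± 0.12) and did not pass in the other 3 pairwise comparisons, with exceptions under other settings given below. In this group 4 of 7 rose with Ras in NS cells, 4 of 7 fell with Ras in knockdown cells and 6 of 7 had a negative interaction past the test. Without knockdown Dox-4OHT replicate 1 (-0.11, adjusted p = 0.136) the call of Pole in knockdown cells ended, and that of Prim2 without knockdown DMSO replicate 2 (-0.18, adjusted p = 0.1). Pole2 with knockdown under DMSO ended without NS DMSO replicate 1 (0.33, adjusted p = 0.081) or, separately, knockdown DMSO replicate 1 (0.32, adjusted p = 0.0754), and the interaction of Pola2 without NS DMSO replicate 1 (-0.17, adjusted p = 0.18), knockdown DMSO replicate 2 (-0.20, adjusted p = 0.103), NS Dox-4OHT replicate 2 (-0.20, adjusted p = 0.105), knockdown Dox-4OHT replicate 1 (-0.23, adjusted p = 0.0759) or, separately, knockdown Dox-4OHT replicate 2 (-0.22, adjusted p = 0.0719).

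The sliding clamp PCNA tethers polymerases to DNA, and replication factor C, with its subunits Rfc1 to Rfc5, loads it. Pcna was at 105 and 108 CPM in NS libraries with DMSO, 129 and 136 in NS under Dox and 4OHT, 138 and 141 in knockdown under DMSO and 122 and 122 in knockdown under Dox and 4OHT. Every group was separate from the others, with untreated NS cells lowest. Pcna rose with Ras in NS cells (0.32 ± 0.04, adjusted p = 1.07e-06), fell with Ras in knockdown cells (-0.19 ± 0.04, adjusted p = 0.000943) and rose with knockdown under DMSO (0.39 ± 0.04, adjusted p = 9.88e-09). Rfc4 had the largest Ras response of the loader genes in NS cells. Rfc4 was at 36.2 and 37.9 CPM in NS libraries with DMSO, 51.0 and 50.2 in NS under Dox and 4OHT, 36.9 and 42.2 in knockdown under DMSO and 32.9 and 34.2 in knockdown under Dox and 4OHT. NS libraries under Ras stood above all others and the knockdown libraries under Ras below. Its Ras response was 0.45 ± 0.07 (adjusted p = 4.07e-06) in NS cells and -0.24 ± 0.07 (adjusted p = 0.00948) in knockdown cells. All 6 genes of this role fell with Ras in knockdown cells and all 6 interactions were negative and past the test, from -0.69 for Rfc4 to -0.23 for Rfc2. With knockdown under Dox and 4OHT Rfc3, Rfc4, Rfc5 and Pcna fell (-0.40, -0.59, -0.19 and -0.11), Rfc2 rose (0.16) and Rfc1 was at -0.03 (adjusted p = 0.469).

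Several of these calls rest on single libraries. With Ras in knockdown cells, the call of Rfc4 ended without knockdown DMSO replicate 2 (-0.14, adjusted p = 0.241) or, separately, knockdown Dox-4OHT replicate 1 (-0.21, adjusted p = 0.0927), that of Rfc1 without knockdown DMSO replicate 2 (-0.10, adjusted p = 0.148) or, separately, knockdown Dox-4OHT replicate 1 (-0.08, adjusted p = 0.218), that of Rfc2 without knockdown DMSO replicate 2 (-0.12, adjusted p = 0.179) or, separately, knockdown Dox-4OHT replicate 1 (-0.11, adjusted p = 0.197) and that of Rfc3 without knockdown DMSO replicate 2 (-0.20, adjusted p = 0.0735) or, separately, knockdown Dox-4OHT replicate 2 (-0.18, adjusted p = 0.112). With knockdown under Dox and 4OHT, Pcna ended without NS Dox-4OHT replicate 2 (-0.07, adjusted p = 0.256), knockdown Dox-4OHT replicate 1 (-0.11, adjusted p = 0.0917) or, separately, knockdown Dox-4OHT replicate 2 (-0.11, adjusted p = 0.089) and Rfc2 without NS Dox-4OHT replicate 1 (0.08, adjusted p = 0.25) or, separately, knockdown Dox-4OHT replicate 2 (0.13, adjusted p = 0.0878), while without NS Dox-4OHT replicate 2 Rfc2 was at 0.26. The interaction of Rfc2 ended without NS DMSO replicate 2 (-0.22, adjusted p = 0.0504), knockdown DMSO replicate 2 (-0.21, adjusted p = 0.062), NS Dox-4OHT replicate 2 (-0.15, adjusted p = 0.121) or, separately, knockdown Dox-4OHT replicate 1 (-0.20, adjusted p = 0.0696). The annotation holds pseudogenes named after Pcna and Tyms, whose reads may be shared with these genes, and exons of Rfc2, Rfc4 and Rfc5 overlap those of Lat2, Eif4a2 and Wsb2.

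Replication protein A coats single-stranded DNA, and it has 3 subunit genes. None of them passed with Ras in NS cells, where the changes were 0.06 ± 0.04 for Rpa1, 0.05 ± 0.05 for Rpa2 and 0.06 ± 0.09 for Rpa3. Knockdown lowered Rpa1 and Rpa3, both under DMSO (-0.18 ± 0.04 and -0.35 ± 0.09) and also under Dox and 4OHT (-0.42 ± 0.04 and -0.37 ± 0.09). Rpa2 rose with knockdown under DMSO (0.17 ± 0.05; without knockdown DMSO replicate 2 (0.14, adjusted p = 0.0691) it did not pass). With Ras in knockdown cells Rpa1 and Rpa2 fell (-0.19 ± 0.04 and -0.22 ± 0.05). Fen1, the flap nuclease, and Lig1, the ligase, finish the fragments of the lagging strand. Both rose with Ras in NS cells (0.18 ± 0.04 and 0.26 ± 0.04) and with knockdown under DMSO (0.18 ± 0.04 and 0.41 ± 0.04). Lig1 fell with Ras in knockdown cells (-0.17 ± 0.04), where Fen1 was at -0.09 ± 0.04 (adjusted p = 0.0948). With knockdown under Dox and 4OHT the values were -0.09 ± 0.04 (adjusted p = 0.0671) for Fen1 and -0.01 ± 0.04 (adjusted p = 0.793) for Lig1, and that of Fen1 passed without NS Dox-4OHT replicate 1 (-0.14, adjusted p = 0.0159) or without Rn45s (-0.10, adjusted p = 0.042).

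The nucleotide supply genes held the strongest exception. Ribonucleotide reductase makes the DNA precursors from a large subunit, encoded by Rrm1, and a small subunit, encoded by Rrm2. Rrm2 was at 223 and 226 CPM in NS libraries with DMSO, 198 and 209 in NS under Dox and 4OHT, 107 and 109 in knockdown under DMSO and 81.3 and 83.0 in knockdown under Dox and 4OHT. All 4 knockdown libraries lay far below all 4 NS libraries, under both treatments. The knockdown change was -1.06 ± 0.04 (adjusted p = 3.49e-18) under DMSO and -1.31 ± 0.04 (adjusted p = 1.16e-19) under Dox and 4OHT, and Ras lowered Rrm2 in knockdown cells too, at -0.40 on the log2 scale (adjusted p = 8.47e-08). The Ras change in NS cells was -0.14 ± 0.04 (adjusted p = 0.00372), a call that ended without NS Dox-4OHT replicate 1 (-0.10, adjusted p = 0.0796) and with DESeq2 (-0.14, adjusted p = 0.0552). Rrm1, by contrast, was at 0.00 ± 0.03 with knockdown under DMSO (adjusted p = 0.922) and fell with Ras in knockdown cells (-0.17 ± 0.03) and with knockdown under Dox and 4OHT (-0.21 ± 0.03). Per kilobase of gene length these 2 genes were the most abundant of the 49 in untreated NS cells, at 138 CPM per kilobase for Rrm1 and 104 for Rrm2. In knockdown cells under Dox and 4OHT Rrm2 was at 37.9 and Rrm1 at 122 CPM per kilobase. Rrm2b, which encodes an alternative small subunit, was between 15.2 and 21.4 CPM over the 8 libraries and changed by 0.07 ± 0.10 (adjusted p = 0.536) with knockdown under DMSO and 0.14 ± 0.10 (adjusted p = 0.249) under Dox and 4OHT. It was picked after the values of Rrm2 were seen.

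Tk1 encodes thymidine kinase of the salvage pathway and had the largest rise with Ras in NS cells. Tk1 was at 119 and 129 CPM in NS libraries with DMSO, 168 and 183 in NS under Dox and 4OHT, 151 and 154 in knockdown under DMSO and 159 and 167 in knockdown under Dox and 4OHT. Untreated NS cells were the lowest group. Tk1 rose by 0.50 ± 0.05 (adjusted p = 3.15e-09) with Ras in NS cells. Its value in knockdown cells was 0.10 ± 0.05 (adjusted p = 0.111), 1 of only 2 positive values among the 49 there, the other being Rpa3 at 0.04. The thymidylate genes Dut, whose enzyme removes dUTP, and Tyms, thymidylate synthase, followed the pattern of the MCM genes. Dut was at 72.7 and 72.6 CPM in NS libraries with DMSO, 79.6 and 82.5 in NS under Dox and 4OHT, 88.4 and 86.1 in knockdown under DMSO and 65.6 and 61.9 in knockdown under Dox and 4OHT. Knockdown libraries under Dox and 4OHT were the lowest without overlap. Dut changed by 0.16 ± 0.05 (adjusted p = 0.0136) in NS cells and -0.45 ± 0.05 (adjusted p = 8.89e-08) in knockdown cells, and Tyms by 0.25 ± 0.05 and -0.40 ± 0.05. The call of Dut in NS cells ended without NS DMSO replicate 1 (0.16, adjusted p = 0.0621), NS DMSO replicate 2 (0.16, adjusted p = 0.0624) or, separately, NS Dox-4OHT replicate 2 (0.13, adjusted p = 0.101). Knockdown under Dox and 4OHT lowered Tyms (-0.15 ± 0.05, adjusted p = 0.0111), a call that ended without NS Dox-4OHT replicate 2 (-0.10, adjusted p = 0.183) or, separately, knockdown Dox-4OHT replicate 2 (-0.15, adjusted p = 0.0518).

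A further 4 genes serve the chromatin of newly made DNA. Chaf1a and Chaf1b encode subunits of the histone chaperone CAF-1, Uhrf1 guides maintenance DNA methylation, and Slbp binds the ends of histone messages. All 4 rose with Ras in NS cells, by 0.37 ± 0.04, 0.26 ± 0.06, 0.40 ± 0.04 and 0.21 ± 0.05, and all 4 fell in knockdown cells, by 0.13, 0.22, 0.24 and 0.19 on the log2 scale. Slbp was at 80.7 and 84.3 CPM in NS libraries with DMSO, 93.1 and 97.7 in NS under Dox and 4OHT, 88.9 and 92.6 in knockdown under DMSO and 77.6 and 81.6 in knockdown under Dox and 4OHT. The groups of Slbp were close together, with NS cells under Ras highest. Of the 2 CAF-1 genes, with knockdown under DMSO, Chaf1a rose by 0.50 ± 0.04 and Chaf1b was at -0.01 ± 0.06 (adjusted p = 0.922), and under Dox and 4OHT Chaf1a was at 0.01 ± 0.04 (adjusted p = 0.879) and Chaf1b fell (-0.48 ± 0.06). Whether the 2 genes differ from each other was not tested, and Chaf1a shares 2542 exon bases with Ubxn6 in the annotation. In knockdown cells the Ras call of Chaf1a ended without knockdown DMSO replicate 2 (-0.09, adjusted p = 0.195) or, separately, knockdown Dox-4OHT replicate 2 (-0.10, adjusted p = 0.185), that of Chaf1b without knockdown DMSO replicate 2 (-0.16, adjusted p = 0.0946) and that of Slbp without knockdown DMSO replicate 2 (-0.16, adjusted p = 0.057) or, separately, knockdown Dox-4OHT replicate 1 (-0.15, adjusted p = 0.0779). Slbp with knockdown under DMSO ended without NS DMSO replicate 1 (0.12, adjusted p = 0.124) or, separately, knockdown DMSO replicate 2 (0.12, adjusted p = 0.122), and Uhrf1 with knockdown under Dox and 4OHT without NS Dox-4OHT replicate 2 (-0.09, adjusted p = 0.111).

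Of the 5 genes that control entry into S phase, Ras raised 1 and lowered 2 in NS cells and lowered 3 in knockdown cells. E2f1, an activating E2F factor and itself an E2F target, was nearly level. E2f1 was at 78.2 and 81.9 CPM in NS libraries with DMSO, 72.3 and 76.5 in NS under Dox and 4OHT, 75.1 and 77.3 in knockdown under DMSO and 74.3 and 73.8 in knockdown under Dox and 4OHT. Its pairwise changes lay between -0.10 and -0.01 and none passed (adjusted p from 0.103 to 0.919). Ccne1 and Ccne2 encode cyclin E, the partner of CDK2 at the start of S phase. Ccne1 was at 40.9 and 41.8 CPM in NS libraries with DMSO, 29.8 and 31.1 in NS under Dox and 4OHT, 38.5 and 37.5 in knockdown under DMSO and 24.7 and 27.4 in knockdown under Dox and 4OHT. Ccne1 was lower under Ras in both kinds of cell, without overlap, at -0.44 ± 0.07 (adjusted p = 1.04e-05) in NS cells and -0.55 ± 0.07 (adjusted p = 1.12e-06) in knockdown cells, and its interaction was -0.11 ± 0.10 (adjusted p = 0.433). Ccne2 was at 63.6 and 67.3 CPM in NS libraries with DMSO, 61.8 and 58.6 in NS under Dox and 4OHT, 44.6 and 47.9 in knockdown under DMSO and 36.6 and 34.4 in knockdown under Dox and 4OHT. Ccne2 was lower in knockdown cells under both treatments, at -0.50 ± 0.06 (adjusted p = 6.54e-08) under DMSO and -0.76 ± 0.07 (adjusted p = 9.1e-11) under Dox and 4OHT. It fell with Ras in knockdown cells (-0.38 ± 0.07, adjusted p = 6.29e-05) and was at -0.12 ± 0.06 (adjusted p = 0.102) in NS cells.

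E2f2, another activator, fell with Ras in NS cells (-0.38 ± 0.08, adjusted p = 0.000431) and with knockdown under DMSO (-0.40 ± 0.08, adjusted p = 0.000128), and was the only gene of the 49 with a positive interaction past the test (0.30 ± 0.12, adjusted p = 0.0472). E2f8 encodes a repressor of E2F targets. E2f8 was at 56.5 and 61.2 CPM in NS libraries with DMSO, 66.9 and 68.6 in NS under Dox and 4OHT, 53.0 and 61.3 in knockdown under DMSO and 44.5 and 44.2 in knockdown under Dox and 4OHT. Knockdown cells under Ras were lowest, without overlap. E2f8 rose with Ras in NS cells (0.20 ± 0.06, adjusted p = 0.00966), fell in knockdown cells (-0.37 ± 0.07, adjusted p = 0.0001) and was lower with knockdown under Dox and 4OHT (-0.61 ± 0.07, adjusted p = 9.17e-09). The positive interaction of E2f2 ended without NS DMSO replicate 1 (0.23, adjusted p = 0.212), knockdown DMSO replicate 1 (0.32, adjusted p = 0.0648), knockdown DMSO replicate 2 (0.27, adjusted p = 0.144), NS Dox-4OHT replicate 1 (0.33, adjusted p = 0.0608), NS Dox-4OHT replicate 2 (0.26, adjusted p = 0.147) or, separately, knockdown Dox-4OHT replicate 1 (0.18, adjusted p = 0.331) and with DESeq2 (0.30, adjusted p = 0.236). The Ras call of E2f8 in NS cells ended without NS DMSO replicate 1 (0.15, adjusted p = 0.153) or, separately, NS Dox-4OHT replicate 2 (0.19, adjusted p = 0.0707), that of Ccne1 with knockdown under Dox and 4OHT (-0.23, adjusted p = 0.0123) without NS Dox-4OHT replicate 2 (-0.19, adjusted p = 0.093) or, separately, knockdown Dox-4OHT replicate 1 (-0.15, adjusted p = 0.193), and the interaction of Ccne2 (-0.26, adjusted p = 0.0223) without NS DMSO replicate 1 (-0.23, adjusted p = 0.0878), knockdown DMSO replicate 2 (-0.21, adjusted p = 0.113), NS Dox-4OHT replicate 1 (-0.23, adjusted p = 0.0697) or, separately, knockdown Dox-4OHT replicate 2 (-0.22, adjusted p = 0.102). Exons of Ccne2 share 474 bases with Ints8 in the annotation.

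**Figure D3:**
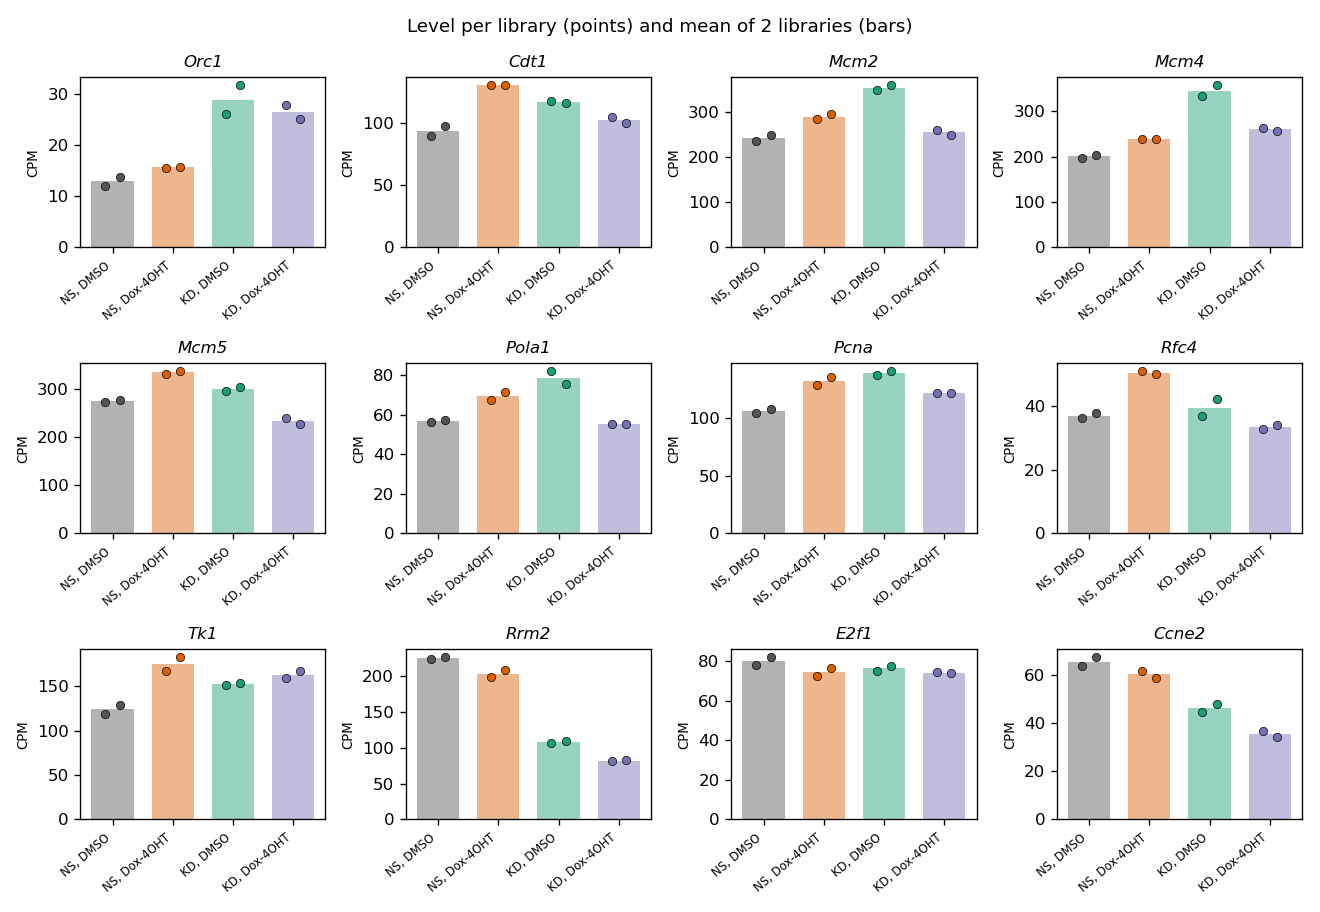
CPM of 12 of the genes in the 4 groups, with bars for the mean of 2 libraries and points for the libraries (NS, non-silencing shRNA; KD, Tgfbr1 knockdown), on axes that start at 0. Mcm2, Pola1 and Pcna are higher with Dox-4OHT or with knockdown alone than with both, Rrm2 is at 109 CPM or lower in KD cells, and E2f1 stays between 72.3 and 81.9 CPM.

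By role, the summed level of the 6 MCM genes went from 1337 and 1371 to 1581 and 1613 CPM with Ras in NS cells and, in knockdown cells, from 1784 and 1845 to 1404 and 1374. The lines of the 2 kinds of cell thus crossed. Those of licensing, helicase activation, polymerases, clamp and loader and the chromatin genes crossed as well, with both knockdown libraries above both NS libraries under DMSO and below them under Dox and 4OHT. The means of the fragment-joining genes crossed, but their libraries under Dox and 4OHT overlapped. The nucleotide genes, dominated by Rrm1 and Rrm2, were at 1023 and 1056 CPM in NS and 999 and 993 in knockdown under DMSO, and at 1081 and 1128 and 871 and 871 under Dox and 4OHT. For the entry genes the knockdown libraries were below the NS libraries under both treatments, at 237 and 248.7 against 274 and 284 CPM under DMSO and 206 and 202 against 257 and 259.6 under Dox and 4OHT.

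**Figure D4:**
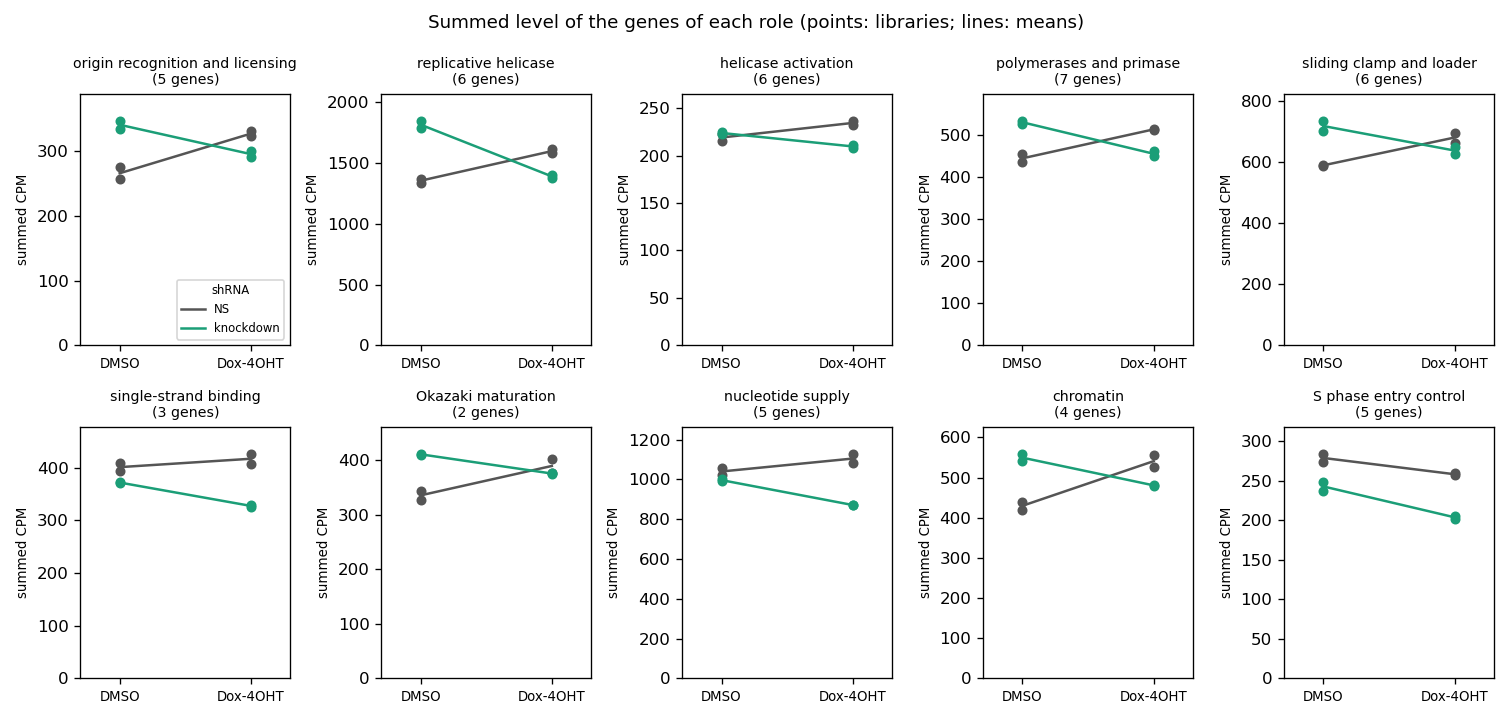
Summed CPM of the genes of each role under DMSO and under Dox-4OHT, with points for libraries and lines through the means, grey for NS and green for Tgfbr1 knockdown cells, on axes that start at 0. The lines cross for the MCM genes, from 1337 and 1371 up to 1581 and 1613 in NS cells and from 1784 and 1845 down to 1404 and 1374 in knockdown cells, and do not cross for single-strand binding, nucleotide supply and S phase entry control.

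Relative to the untreated NS libraries, the state with both knockdown and Ras showed no common direction. The ratio of group means had a median of 0.990 over the 49 genes, and 0.991 over all genes tested. Libraries of the 2 groups did not overlap in 42 of the 49, with 20 higher and 22 lower in the combined state, against 40.5% higher and 42.4% lower over all genes tested. In 36 genes the group means were within 20% of each other. Orc1 (ratio 2.05), Gins1 (1.42), Tk1 (1.32), Chaf1a (1.30) and Mcm4 (1.29) were above and Rrm2 (0.366), Ccne2 (0.542), Ccne1 (0.630), E2f2 (0.716), Gins2 (0.734), E2f8 (0.754), Rpa1 (0.777) and Gins3 (0.794) below. These ratios are a description, and this pair of groups was not tested.

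**Figure D5:**
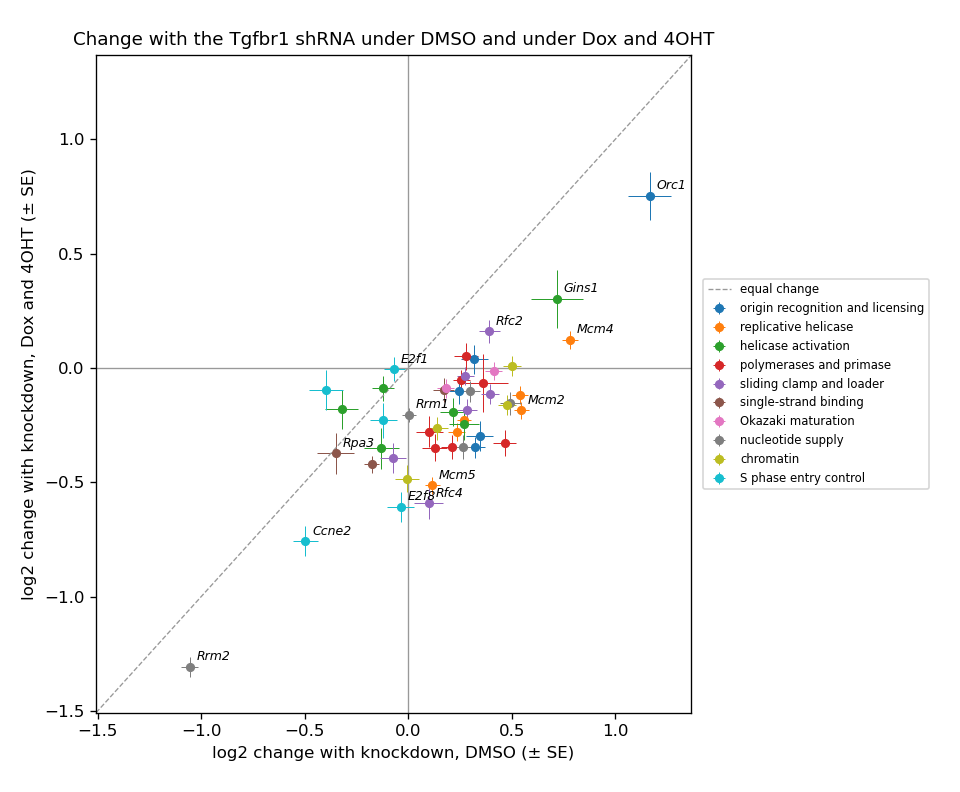
Log2 change with the Tgfbr1 shRNA under DMSO (horizontal) and under Dox and 4OHT (vertical), each point 1 gene with bars of 1 SE, coloured by role; the dashed line marks equal changes. Most points lie below the line, with Orc1 at 1.17 and 0.75 highest and Rrm2 at -1.06 and -1.31 lowest on both axes.

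Most of the changes did not pass a stricter test. Failing it does not place a change below the fold tested, because each fitted change carries an error. When the log2 change was tested against a fold of 1.2 rather than against 0, 6 of the 49 rose in NS cells with Ras (Cdt1, Chaf1a, Mcm10, Rfc4, Tk1 and Uhrf1; background 5.14%) and Ccne1 fell (7.55%). In knockdown cells 10 fell (Mcm2, Mcm3, Mcm4, Mcm5, Mcm6, Pola1, Dut, Tyms, Rrm2 and Ccne1; background 2.23%) and none rose (6.21%). With knockdown 12 rose and 3 fell under DMSO (14.2% and 17.4%), and 1 rose and 9 fell under Dox and 4OHT (16.6% and 14.9%). The interaction was larger, and 24 of the 49 passed this test with a negative sign (background 5.46%) and none with a positive sign (9.43%). No gene of the 49 rose with Ras in knockdown cells by edgeR or by DESeq2 at an adjusted p under 0.05, and 1, Tk1, did at an unadjusted p under 0.05 by edgeR and none by DESeq2. The number of positive log2 changes there was 2 of 49, and in NS cells 41 of 49. Signs were not counted over all genes tested, whose median change was 0.00 in both comparisons.

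DESeq2, which calls fewer genes here, did not call some of the genes named above. With Ras in NS cells these were Gmnn, Rrm2, Dut and E2f8, and in knockdown cells Cdt1, Gins2, Prim2, Pole, Rfc1, Rfc2, Rfc3, Rfc4, Chaf1a, Chaf1b and Slbp. With knockdown they were Gins4, Pole2, Rpa2 and Slbp under DMSO and Mcm3, Mcm10, Cdc45, Gins1, Pcna, Tyms and Ccne1 under Dox and 4OHT. Interactions that it did not call were those of Orc1, Gmnn, Pola2, Rfc2, Rfc3, Rpa2, E2f2 and Ccne2.

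Other genes passed only under another setting. With Ras in NS cells Orc1 (0.29 ± 0.12, adjusted p = 0.0517) passed with no low-count filter (0.29, adjusted p = 0.028), with only the libraries compared (0.29, adjusted p = 0.0378), without NS DMSO replicate 2 (0.38, adjusted p = 0.0413), without knockdown DMSO replicate 1 (0.29, adjusted p = 0.0325) or without knockdown DMSO replicate 2 (0.29, adjusted p = 0.0333). Pola2 (0.12 ± 0.06, adjusted p = 0.0932) did so without NS DMSO replicate 2 (0.19, adjusted p = 0.0443), and Rfc2 (0.08 ± 0.05, adjusted p = 0.199) without NS Dox-4OHT replicate 1 (0.17, adjusted p = 0.017). With Ras in knockdown cells Pole2 (-0.28 ± 0.12, adjusted p = 0.0717) passed with no low-count filter (-0.29, adjusted p = 0.0369) or without knockdown Dox-4OHT replicate 2 (-0.51, adjusted p = 0.00564). Orc1 (-0.13 ± 0.09, adjusted p = 0.303) did so without knockdown DMSO replicate 1 (-0.27, adjusted p = 0.0446), and Pold1 (-0.14 ± 0.06, adjusted p = 0.0783) without knockdown DMSO replicate 1 (-0.22, adjusted p = 0.0188). With knockdown under DMSO Pold1 (0.13 ± 0.06, adjusted p = 0.0666) passed with no low-count filter (0.14, adjusted p = 0.0357), without NS DMSO replicate 2 (0.20, adjusted p = 0.0274), without knockdown DMSO replicate 1 (0.21, adjusted p = 0.0104), without NS Dox-4OHT replicate 1 (0.14, adjusted p = 0.0491) or without NS Dox-4OHT replicate 2 (0.14, adjusted p = 0.0492). Prim2 (0.10 ± 0.06, adjusted p = 0.174) did so without knockdown DMSO replicate 1 (0.19, adjusted p = 0.0358), and Rfc4 (0.10 ± 0.07, adjusted p = 0.219) without knockdown DMSO replicate 1 (0.21, adjusted p = 0.0262). With knockdown under Dox and 4OHT Gins3 (-0.18 ± 0.08, adjusted p = 0.0619) passed without knockdown Dox-4OHT replicate 2 (-0.24, adjusted p = 0.0499), and the interaction of Pole2 (-0.42 ± 0.17, adjusted p = 0.0578) passed with no low-count filter (-0.43, adjusted p = 0.0263), without NS Dox-4OHT replicate 1 (-0.52, adjusted p = 0.0415) or without knockdown Dox-4OHT replicate 2 (-0.65, adjusted p = 0.00515).

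Other genes of DNA replication that are not among the 49 had a similar division. Of 44 such genes, all tested, Ras raised 28 and lowered 1 in NS cells, and raised 1 and lowered 30 in knockdown cells. With knockdown 24 rose and 3 fell under DMSO and 5 rose and 26 fell under Dox and 4OHT. In this order 65.9%, 70.5%, 61.4% and 70.5% of the 44 were called, against 42.1%, 36.1%, 61.9% and 60.2% of all genes tested. The median interaction of the 44 was -0.46. Hells, a chromatin remodeller of S phase, changed with Ras by 0.34 ± 0.05 (adjusted p = 5.8e-07) in NS cells. Orc2, a core subunit of the origin recognition complex, was lower with knockdown under Dox and 4OHT (-0.99 ± 0.05, adjusted p = 1.41e-15), against the rise of Orc1, and Pold4, the small subunit of polymerase delta, was higher (1.21 ± 0.11, adjusted p = 3.67e-10).

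Mitosis and G2 genes rose with Ras in NS cells in 27 of 28 cases and fell in knockdown cells in 18 of 28, with none in the opposite direction, and 27 of 28 interactions were negative and past the test. With knockdown under DMSO 12 of them rose and 8 fell, with a median of 0.08. Under Dox and 4OHT 1 rose with knockdown and 24 fell, with a median of -0.42. For Ras in NS and in knockdown cells 96.4% and 64.3% of the 28 were called, against 42.1% and 36.1% of all genes tested. For knockdown the shares were 71.4% under DMSO, near the background of 61.9%, and 89.3% under Dox and 4OHT, against 60.2%. For the interaction 96.4% were called, against 38.2%. Of the 28, 17 (60.7%) rose with Ras in NS cells and fell in knockdown cells. The same was seen in 23 of the 44 other replication genes (52.3%) and in 46.9% of the 49. How these lists compare with the 49 was not tested. Among 15 genes of G1/S control, Ras raised 6 and lowered 1 in NS cells and lowered 8 in knockdown cells. These are 46.7% and 53.3% of the 15, against 42.1% and 36.1% of all genes tested, so the first is near the background. Tfdp1, the DNA-binding partner of the E2F factors, went from 184 and 186 CPM in NS to 76.5 and 89.4 CPM in knockdown libraries with DMSO, and from 197 and 186 to 69.1 and 69.5 CPM under Dox and 4OHT. These are knockdown changes of -1.16 ± 0.05 (adjusted p = 1.31e-14) and -1.47 ± 0.05 (adjusted p = 3.34e-16). Ccna2, cyclin A of S phase, was lower with knockdown under Dox and 4OHT (-0.85 ± 0.04, adjusted p = 1.06e-16).

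D cyclins and CDK inhibitors had 2 higher and 1 lower of 12 with Ras in NS cells and 8 higher and 2 lower in knockdown cells. Cdkn1a encodes p21, an inhibitor of CDK2 and of PCNA. Cdkn1a was at 51.7 and 49.3 CPM in NS libraries with DMSO, 30.3 and 31.9 in NS under Dox and 4OHT, 42.2 and 36.9 in knockdown under DMSO and 69.9 and 67.5 in knockdown under Dox and 4OHT. Its groups were separate, and under Ras their order ran against that of the MCM genes other than Mcm4. Cdkn1a fell with Ras in NS cells (-0.70 ± 0.07, adjusted p = 4.47e-09) and rose in knockdown cells (0.80 ± 0.06, adjusted p = 1.26e-10), with an interaction of 1.51 ± 0.10 (adjusted p = 2.07e-12). Cdkn2b, which encodes the CDK4 and CDK6 inhibitor p15, rose with Ras in knockdown cells (0.45 ± 0.07, adjusted p = 4.41e-06). The list was not one-sided. Ccnd1, a D cyclin gene, rose with Ras by similar amounts in both kinds of cell, 0.68 ± 0.04 for NS and 0.69 ± 0.04 for knockdown. The inhibitor gene Cdkn2c was lower with knockdown under DMSO (-0.49 ± 0.06) and under Dox and 4OHT (-0.76 ± 0.06). What part any of these genes had in the changes of the replication genes was not tested.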

How the data were processed

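Per the labels, libraries were made with an Illumina TruSeq RNA kit from column-purified RNA. Estimated counts, which the authors deposited in 1 table without normalization, were given for each gene with its length. The table was made with TopHat and HOMER on mm9, per the submitters' processing notes, which also name DESeq2; versions, strand and handling of shared reads are not given here. All values were multiples of 0.5 and were rounded for the tests. Of 24909 entries 2 repeated a symbol and were dropped.

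All 8 libraries entered 1 edgeR 4.0.16 model (R 4.3.3) with a mean per group, TMM scaling and filterByExpr at default settings (12538 genes, 4 residual degrees of freedom, biological coefficient of variation 3.37%). Quasi-likelihood F tests, two-sided, were made for 5 contrasts, adjusted by Benjamini-Hochberg over these 12538 genes, with calls at 0.05. The fit was also run on simulated data with a common spread for all genes and groups. That run cannot show how the fit behaves where groups differ in spread. In each group the 2 replicates' counts differed beyond sampling noise, by unequal amounts. Chi-square per degree of freedom was 2.28 in NS under DMSO and 12.7 in NS under Dox and 4OHT. In knockdown cells it was 7.95 under DMSO and 2.60 under Dox and 4OHT. The model shares its estimate of spread over the groups, so standard errors may be too small where a group varies more. CPM per kilobase uses the deposited length. Alternatives were DESeq2 1.42.0, its size factors, no filter, only the libraries compared, a replicate block, no Rn45s, a test against a fold of 1.2, and leaving out each library.

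The genes, the lists of other genes and the rule for those shown by library were chosen with earlier results of these data known. The rule took the 4 largest called changes of each comparison and 16 well-known members. Of the other lists it took up to 3 genes with the smallest p of a comparison. Overlapping gene models are from GENCODE M21 and promoter windows from RefSeq GRCm38.p6, the only source of the coordinates given; the counts are on mm9.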

Additional observations from a re-analysis of the deposited data

Results flagged for a closer look

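The response to Ras differed between NS and knockdown cells in 41 of the 49 genes by the test of the difference itself (adjusted p under 0.05 in edgeR's quasi-likelihood test), where 38.2% of all genes tested did. The values that follow are the log2 change with Ras in knockdown cells minus that in NS cells. Licensing genes had Cdt1 -0.67, Cdc6 -0.64, Orc1 -0.41, Orc6 -0.35 and Gmnn -0.28. The helicase and its activators had Mcm2 -0.73, Mcm4 -0.66, Mcm3 -0.66, Mcm5 -0.63, Mcm10 -0.51, Mcm7 -0.51, Mcm6 -0.50 and Cdc45 -0.41. Polymerases and primase had Pola1 -0.79, Prim1 -0.56, Pold1 -0.48, Prim2 -0.38, Pole -0.31 and Pola2 -0.23. The clamp and its loader had Rfc4 -0.69, Pcna -0.51, Rfc5 -0.47, Rfc3 -0.32, Rfc1 -0.31 and Rfc2 -0.23. Strand binding and joining genes had Lig1 -0.43, Fen1 -0.27, Rpa2 -0.27 and Rpa1 -0.25. Nucleotide genes had Tyms -0.65, Dut -0.61, Tk1 -0.40, Rrm2 -0.25 and Rrm1 -0.21, and chromatin genes Uhrf1 -0.64, Chaf1a -0.49, Chaf1b -0.48 and Slbp -0.40. Entry genes had E2f8 -0.57 and Ccne2 -0.26, and E2f2 alone had a positive value, 0.30. The other 8 genes did not pass.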

How the results depend on the processing

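Without any of the 8 libraries in turn, 26 to 30 of the 49 rose and 2 to 3 fell with Ras in NS cells, and 0 rose and 25 to 36 fell in knockdown cells. With knockdown 28 to 34 rose and 6 to 7 fell under DMSO, and 2 to 4 rose and 24 to 32 fell under Dox and 4OHT. The interaction was lower in 36 to 40 and higher in 0 to 1. In these fits the lone library of a group is assumed to vary like the other groups. The count of genes higher with knockdown under Dox and 4OHT was 2, not 4, without NS Dox-4OHT replicate 1 or either knockdown Dox-4OHT library. The test against a fold of 1.2 lowered every count above 0: to 6 higher and 1 lower with Ras in NS cells, 10 lower in knockdown cells, 12 higher and 3 lower with knockdown under DMSO, 1 higher and 9 lower under Dox and 4OHT, and 24 lower and 0 higher for the interaction. With DESeq2, or without Rn45s, the interaction was higher in 0. DESeq2 called 26 higher with Ras in NS cells and 23 lower in knockdown cells. Over all 12538 genes and both directions it called 3265 and 2628, where edgeR called 5281 and 4531. No log2 change that passed in either fit changed sign under any alternative. Same-numbered libraries did not deviate together (correlations of -0.04 to 0.06 over the pairs of groups), so the numbers were taken as labels only. With the replicate number as a block the counts were 29 higher and 3 lower with Ras in NS cells, 0 and 34 in knockdown cells, 32 and 7 with knockdown under DMSO, 4 and 31 under Dox and 4OHT, and 1 and 40 for the interaction. In this order 5319, 4559, 7777, 7554 and 4814 of all 12538 genes were called with the block, in either direction. Tk1 with knockdown under Dox and 4OHT passed with this block, without the filter, without Rn45s or without NS Dox-4OHT replicate 1. Depth limits the scarcest genes: the interaction of Gins1 had a standard error of 0.18.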
